A study of Homo sapiens with 12 samples.

Results

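The antioxidant response driven by the transcription factor NRF2 was followed through 34 genes in EA.hy926 cells that had been treated with the copper chelator TEPA, with low oxygen or with both. The genes were found by symbol, and all 34 had a row in a count table of 51141 rows. Of these, 29 had enough counts to be tested, among 14447 tested genes. With TEPA and low oxygen together, HMOX1, TRIM16, TRIM16L and ABHD4 fell below control cells, HMOX1 to 0.416 of its control level. In that comparison 0.118% of all tested genes were lower at an adjusted p under 0.05. With TEPA alone, 28 of the 29 log2 fold changes against control were negative, as were 48.9% of those of all tested genes. However, no member and no other tested gene passed the main test, that of edgeR, when all libraries were fitted. DESeq2's Wald test on the same libraries called 4 members lower and 0.0415% of all tested genes.

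EA.hy926 is a hybrid line that was obtained by fusing human umbilical vein endothelial cells with A549 lung carcinoma cells, so its libraries describe 1 clonal line. TEPA is a polyamine that chelates copper. There were 12 libraries of poly(A) RNA, 3 in each group. The TEPA+hypoxia group received 50 µM TEPA for 16 h and then spent 8 h in 1% oxygen. The TEPA group received the same 16 h of TEPA and then 8 h in normal air, the hypoxia group 8 h in 1% oxygen without TEPA, and the control group neither. The labels do not say whether replicates were separate cultures, so p-values measure the spread between these libraries.

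NRF2, encoded by NFE2L2, is held in the cytoplasm by KEAP1, which passes it to a ubiquitin ligase for destruction. When oxidants or electrophiles modify KEAP1, NRF2 escapes, enters the nucleus, pairs with a small MAF protein such as MAFG and binds antioxidant response elements. Its targets supply glutathione, thioredoxin and NADPH, break down haem, and detoxify quinones and carbonyls. The A549 parent is known for mutated KEAP1 and high basal NRF2 activity, a property that was not examined here in EA.hy926.

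The core letters of the antioxidant response element, TGACNNNGC on either strand, were searched in RefSeq promoter windows of build GRCh38.p14 that run from 250 bases before to 50 bases after a gene's start. A window was found for 27 of the 34 members, and 7 of the 27 windows (25.93%) held the motif, against 3702 of 27305 windows of all genes (13.56%). The 7 were GCLM, GPX2, TXNRD1, PGD, ME1, CBR1 and PIR. No window was found for HMOX1, SLC7A11, GSR, PRDX1, AKR1B10, ABCC3 and TRIM16L. Of the members that fell below control cells with all libraries fitted, TRIM16 and ABHD4 had windows without the motif, and HMOX1 and TRIM16L had none to search. The 4 windows printed next, on the gene's own strand, belong to members that held the motif, were tested and were lower in TEPA+hypoxia than in control cells in a fit without 2 of the libraries, as described further on; the capitals mark the motif. They are GCLM (chr1:93909381-93909680, minus strand), ME1 (chr6:83431002-83431301, minus strand), PGD (chr1:10398814-10399113, plus strand) and PIR (chrX:15493284-15493583, minus strand).
GCLM: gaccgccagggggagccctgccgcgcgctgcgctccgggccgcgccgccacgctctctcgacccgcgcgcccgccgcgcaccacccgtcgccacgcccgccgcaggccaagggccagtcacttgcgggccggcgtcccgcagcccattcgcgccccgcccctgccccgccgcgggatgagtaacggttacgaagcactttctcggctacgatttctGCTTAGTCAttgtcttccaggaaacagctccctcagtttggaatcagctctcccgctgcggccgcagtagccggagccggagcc
ME1: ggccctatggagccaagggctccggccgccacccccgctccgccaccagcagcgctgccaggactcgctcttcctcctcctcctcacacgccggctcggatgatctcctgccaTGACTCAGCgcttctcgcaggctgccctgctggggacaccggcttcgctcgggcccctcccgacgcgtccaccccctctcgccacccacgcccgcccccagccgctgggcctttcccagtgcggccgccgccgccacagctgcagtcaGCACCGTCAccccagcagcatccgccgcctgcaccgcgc
PGD: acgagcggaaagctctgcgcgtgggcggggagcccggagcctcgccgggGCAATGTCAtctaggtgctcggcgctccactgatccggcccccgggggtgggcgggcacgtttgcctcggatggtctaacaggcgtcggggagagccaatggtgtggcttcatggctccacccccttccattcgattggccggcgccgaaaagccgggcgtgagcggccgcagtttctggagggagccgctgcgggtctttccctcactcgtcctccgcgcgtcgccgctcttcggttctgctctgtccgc
PIR: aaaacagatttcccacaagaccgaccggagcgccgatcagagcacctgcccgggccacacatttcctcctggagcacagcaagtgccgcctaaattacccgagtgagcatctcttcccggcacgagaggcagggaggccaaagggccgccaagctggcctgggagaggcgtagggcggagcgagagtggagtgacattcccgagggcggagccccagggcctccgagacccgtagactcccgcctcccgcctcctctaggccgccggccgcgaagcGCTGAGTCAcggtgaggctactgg
Counting the first transcribed base as 1, the matches began at -34 in GCLM, at -137 and 12 in ME1, at -201 in PGD and at 27 in PIR. ME1 carried its upstream match in the forward direction, and the other 4 matches lay in the reverse direction. The upstream match of ME1 and the match of PIR also contain TGACTCA or its reverse complement, the motif of AP-1, a different family of transcription factors. A match is a string of letters, and no binding was measured here.

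Library totals ran from 13406858 to 24778944 counts. Of the 12, hypoxia 2 and 3 were unlike all others. A first principal component with 80.9% of the variance scored hypoxia 2 at 110.0, hypoxia 3 at 92.2, hypoxia 1 at 10.7 and the remaining libraries at -47.0 to -7.12. The TMM factors of hypoxia 2 and 3, which rescale library totals, were 0.772 and 0.838, against 1.03 to 1.08 elsewhere. Levels are given as CPM, a gene's counts scaled to the same total in every library after that rescaling, and are divided by exon length only where given per kilobase. Counts from ribosomal protein genes made up 8.94% of hypoxia 2 and 7.72% of hypoxia 3, against 2.84% to 4.55% in the other 10. Summed epithelial markers (8 listed, 4 tested, CDH1 at 0 throughout) lay at 15540 to 18190 CPM in these libraries and at 5440 to 7690 CPM in the other 10. Nearly all of each sum came from the keratins KRT7, KRT18 and KRT8, while EPCAM, KRT19, CLDN4 and CLDN7 reached at most 0.99 CPM in any library. Endothelial markers (10 listed, 9 tested, CLDN5 at 0 throughout) lay at 3143 to 3245 CPM, against 2457 to 2825 CPM. Over all 12 libraries PECAM1 lay at 431 to 675 CPM, CDH5 at 274 to 773 CPM and TIE1 at 340 to 451 CPM. ESAM lay at 193 to 349 CPM, EGFL7 at 329 to 1715 CPM and ERG at 81.8 to 175 CPM. VWF (6.4 to 10.4 CPM) and KDR (2.9 to 12.1 CPM) were low, and TEK ran from 2.3 to 82.05 CPM. Added to the lowest values of the other markers, 1715 CPM of EGFL7 exceeds 2825 CPM, so that value lay in hypoxia 2 or 3. The higher endothelial sum there therefore rests largely on EGFL7 and does not mean that each marker was higher. Fibroblast and mural markers summed to 10.6 to 12.7 CPM in hypoxia 2 and 3, against 6.92 to 12.4 CPM, and leukocyte markers to 3.89 to 4.54 CPM, against 3.75 to 6.26 CPM. The part of these differences in any result was not tested, and in bulk RNA fewer cells of a kind and less RNA per cell cannot be told apart. All tests were therefore run with all 12 libraries and again without hypoxia 2 and 3.

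Counts were too low in 5 members. GPX2 had 1 count over the 12 libraries, TXNRD1 2, AKR1C2 4, AKR1C3 0 and ABCC2 74, with at most 17 in any library. TXNRD1 encodes the cytosolic thioredoxin reductase and is widely expressed, so such values were not read as silence. AKR1C1, AKR1C2 and AKR1C3 are closely related genes, and the authors' counting may have split or discarded reads that they share. AKR1C1 itself, with 0.616 ± 0.0835 CPM in control cells (SD, n = 3), is uncertain for that reason. TRIM16L is a partial copy of TRIM16, so the division of reads between them is uncertain too. In the GENCODE 29 annotation, 85.0% of the exon bases of SRXN1 and 23.5% of those of TRIM16 also belong to another protein-coding gene model on the same strand. SQSTM1, PRDX1, NQO1 and CBR1 share 17.7% to 24.9% of their exon bases with genes on the opposite strand. The strand setting of the counting is not given in the sources used here.

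In control cells the levels of the 29 tested members, as CPM per kilobase of exon, spanned several orders of magnitude. PRDX1, a peroxiredoxin that removes hydrogen peroxide, was highest at 688 ± 34.7 (SD, n = 3). NQO1, which reduces quinones and is a standard readout of NRF2 activity, followed at 253 ± 5.14. TXN, the cytosolic thioredoxin, lay at 178 ± 11.2, ahead of TALDO1 at 107 ± 8.56, SRXN1 at 92.2 ± 3.35, PGD at 85.8 ± 2.09 and TKT at 67.8 ± 3.84. Neighbours further down were closer than their spread, as with BLVRB at 46.8 ± 5.65 and CBR1 at 46.1 ± 4.29. From GSR at 22.7 ± 1.52 down to ABHD4 at 13.9 ± 0.367, 10 members lay close together, HMOX1 (17.2 ± 2.79), NFE2L2 (16.3 ± 0.863), MAFG (15.7 ± 0.857), GCLM (15.5 ± 3.01) and SLC7A11 (14.0 ± 4.03) among them. AKR1B10 (2.86 ± 0.398), ABCC3 (0.163 ± 0.0111) and AKR1C1 (0.0703 ± 0.00953) were lowest.

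**Figure D1:**
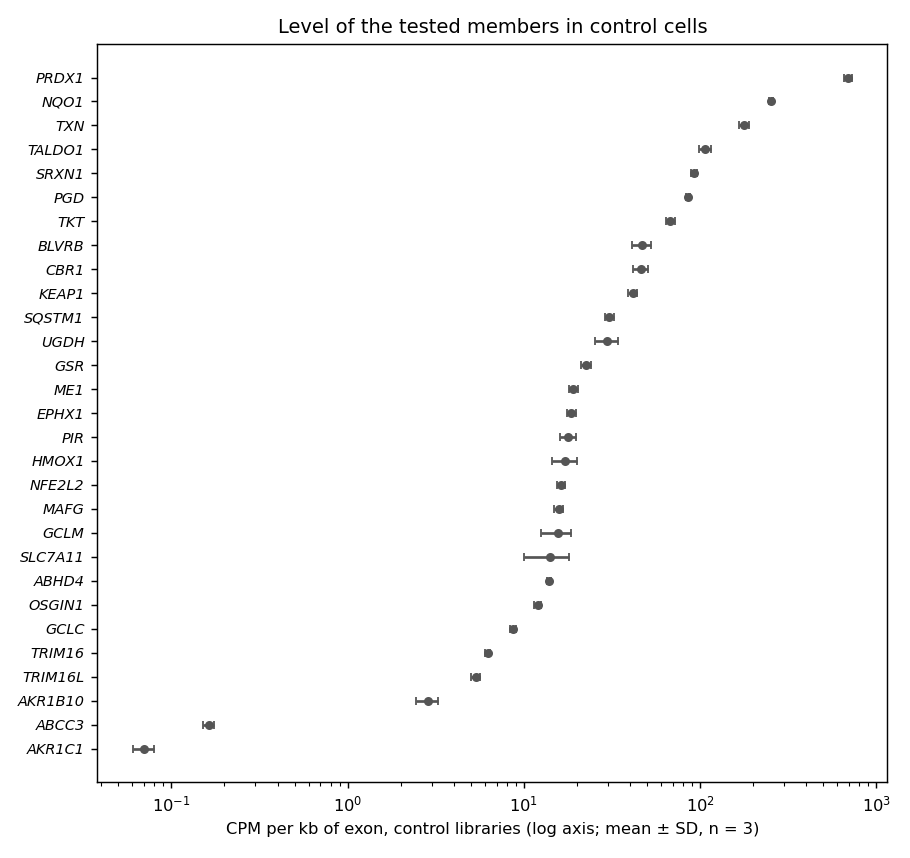
Levels of the 29 tested members in control cells, as CPM per kilobase of exon on a log axis; points are means and bars the SD of 3 libraries. PRDX1 at 688 and NQO1 at 253 lie at the top, and ABCC3 and AKR1C1 lie below 1.

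The comparison of TEPA+hypoxia with control joins both treatments and does not use the hypoxia libraries in its values. In it, 4 members fell and none rose (adjusted p under 0.05 in edgeR's quasi-likelihood test, Benjamini-Hochberg over 14447 genes). Of all tested genes, 0.263% were called in either direction and 0.118%, 17 genes, were called lower. The median log2 fold change over the 29 members was -0.44, against 0.001 over all tested genes, and 27 of the 29 were negative. In 24 of the 29, every TEPA+hypoxia library lay below every control library, an order seen in 15.5% of all tested genes.

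HMOX1 encodes haem oxygenase 1, the inducible enzyme that opens the haem ring to biliverdin, iron and carbon monoxide; the gene lies at chromosome 22, 35380361 to 35394214, plus strand (GENCODE 29, GRCh38, as for all gene positions here). It had 17.7, 19.3 and 14.6 CPM in TEPA+hypoxia 1 to 3, 24.0, 22.3 and 19.7 CPM in TEPA 1 to 3, 24.7, 32.5 and 34.5 CPM in hypoxia 1 to 3, and 46.1, 44.0 and 33.6 CPM in control 1 to 3. All 3 TEPA+hypoxia libraries and all 3 TEPA libraries lay below all 3 control libraries, while hypoxia 3 lay above control 3. The means were 17.2 ± 2.39, 21.99 ± 2.15, 30.6 ± 5.16 and 41.3 ± 6.71 CPM in that order of groups (SD, n = 3 each). TEPA+hypoxia over control gave -1.27 on the log2 scale, the most negative value of the 29 (SE 0.17, adjusted p = 0.00887), and leaving out hypoxia 2 and 3 gave -1.26 (adjusted p = 0.000365). Of the neighbours in that order, TEPA+hypoxia and TEPA did not overlap but did not pass the test (adjusted p = 0.684). Hypoxia over control overlapped and passed with all 12 libraries (-0.44, adjusted p = 0.0441) but not without hypoxia 2 and 3 (adjusted p = 0.0861), and TEPA was not tested against hypoxia.

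TRIM16 and TRIM16L, which lie on chromosome 17 at 15627960 to 15684311 (minus strand) and 18697998 to 18736118 (plus strand), encode a tripartite motif protein that takes part in stress responses and a shorter relative of it. TRIM16 had 21.3, 21.4 and 18.5 CPM in TEPA+hypoxia, 23.6, 23.9 and 21.7 CPM in TEPA, 30.8, 33.4 and 31.4 CPM in hypoxia, and 33.9, 35.1 and 36.2 CPM in control libraries. TRIM16L had 10.4, 12.4 and 10.8 CPM in TEPA+hypoxia, 14.4, 14.8 and 14.2 CPM in TEPA, 16.8, 18.8 and 20.5 CPM in hypoxia, and 23.1, 21.7 and 24.3 CPM in control libraries. In both genes the 4 groups did not overlap one another, and they stood in the order TEPA+hypoxia, TEPA, hypoxia, control. Over control, TEPA+hypoxia gave -0.78 for TRIM16 (SE 0.10, adjusted p = 0.00886) and -1.04 for TRIM16L (SE 0.12, adjusted p = 0.0055). The fit lacking hypoxia 2 and 3 gave -0.77 and -1.02, at adjusted p of 0.000581 and 0.000257. Because the division of reads between the genes is uncertain, their falls may not be separate.

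ABHD4 (chromosome 14, 22598237 to 22613215, plus strand) encodes a lipid hydrolase of the N-acyl phospholipid pathway. It had 29.3, 33.3 and 28.4 CPM in TEPA+hypoxia, 42.2, 37.5 and 32.3 CPM in TEPA, 46.7, 43.6 and 49.2 CPM in hypoxia, and 55.0, 57.1 and 57.8 CPM in control libraries. Its TEPA+hypoxia and TEPA values overlapped at 33.3 and 32.3 CPM, and both groups lay below every control library. The log2 fold change of TEPA+hypoxia over control was -0.90 (SE 0.12, adjusted p = 0.00886), and leaving out hypoxia 2 and 3 gave -0.89 (adjusted p = 0.00043).

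**Figure D2:**
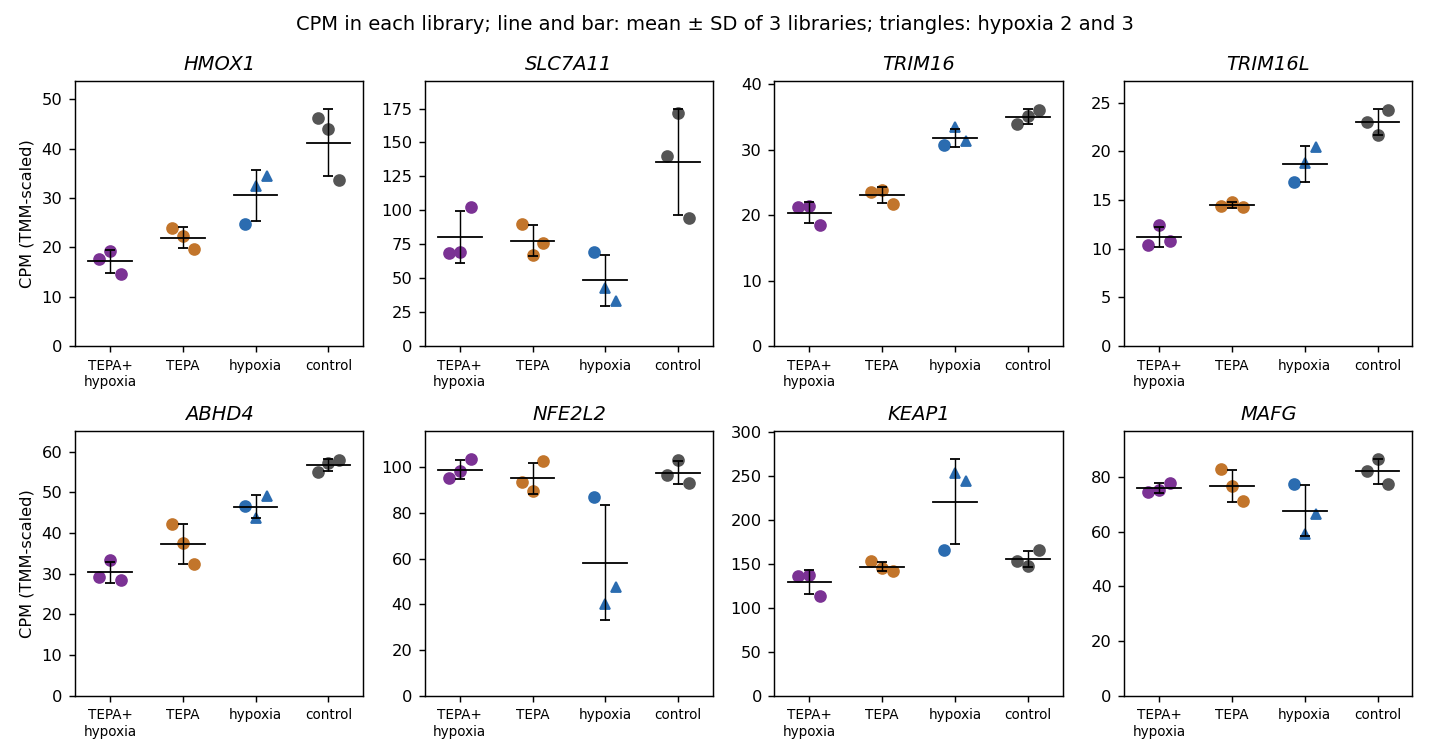
CPM of 8 members in each of the 12 libraries, with TEPA+hypoxia at the left and control at the right of each panel; lines and bars are the mean and SD of 3 libraries, and triangles mark hypoxia 2 and 3. HMOX1, TRIM16, TRIM16L and ABHD4 are low in all TEPA+hypoxia and TEPA libraries, while the means of NFE2L2, KEAP1 and MAFG are 98.9, 129 and 75.9 CPM in TEPA+hypoxia, against 97.6, 156 and 82.1 CPM in control cells.

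With hypoxia 2 and 3 left out, the common dispersion of the fit dropped to 0.00846, against 0.0339 with all 12 libraries, and 18 of 29 members were called lower and none higher, where 2.39% of all tested genes were lower and 5.5% were called in either direction. By role, the called members were SQSTM1 among the 4 regulators, HMOX1 of the 2 haem genes, all 4 glutathione genes, SRXN1 of the 3 thioredoxin genes, all 4 genes of NADPH supply, NQO1 and EPHX1 among 5 genes of quinone, carbonyl and epoxide metabolism, and all 5 other targets. The log2 fold changes of these 18 ran from -1.26 in HMOX1 to -0.31 in TALDO1. The fold changes differed little between the fits, since this comparison's group means use the same libraries in both. Leaving out 1 library at a time called 0 members without control 1, 1 without control 2, 2 without control 3, 2 without TEPA+hypoxia 1, 1 without TEPA+hypoxia 3, 17 without hypoxia 1 and 4 without any other library. The share of all tested genes called in these fits ran from 0.0208% without control 1 to 4.7% without hypoxia 1. TRIM16L was called in 23 of the 24 alternative fits, HMOX1 and TRIM16 in 20 and ABHD4 in 19.

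The glutathione genes make or recycle the cell's main thiol. SLC7A11, the cystine importer (chromosome 4, 138164097 to 138242349, minus strand), had 68.7, 69.3 and 102 CPM in TEPA+hypoxia, 90.1, 67.2 and 75.8 CPM in TEPA, 69.4, 42.6 and 33.3 CPM in hypoxia, and 140.1, 172 and 94.4 CPM in control libraries. Its control libraries spread widely (135 ± 38.9 CPM), and TEPA+hypoxia 3 lay above control 3, so these groups overlapped, whereas every TEPA and every hypoxia library lay below every control library. TEPA+hypoxia over control gave -0.76 (SE 0.28, adjusted p = 0.361), and -0.75 (SE 0.19, adjusted p = 0.0388) without hypoxia 2 and 3. GCLM and GCLC are the subunits of glutamate-cysteine ligase, which makes the first bond of glutathione. In the fit without those 2 libraries they gave -0.69 (SE 0.12, adjusted p = 0.00624) and -0.34 (SE 0.08, adjusted p = 0.0267), and with all 12 libraries adjusted p was 0.365 and 0.702. GSR, which returns oxidised glutathione to its reduced form, had 60.3, 64.7 and 63.4 CPM in TEPA+hypoxia, 78.7, 78.5 and 74.4 CPM in TEPA, 68.5, 48.7 and 55.1 CPM in hypoxia, and 83.5, 91.6 and 80.5 CPM in control libraries. GSR in TEPA+hypoxia lay below both the TEPA and the control libraries without overlap, at -0.44 over control with all libraries (SE 0.12, adjusted p = 0.199) and -0.43 without hypoxia 2 and 3 (SE 0.07, adjusted p = 0.00624).

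Of the NADPH genes, PGD (6-phosphogluconate dehydrogenase) gave -0.48 (SE 0.06, adjusted p = 0.000963) and ME1 (cytosolic malic enzyme) -0.42 (SE 0.07, adjusted p = 0.00696) in that smaller fit. TKT and TALDO1, transketolase and transaldolase of the pentose phosphate pathway, gave in the same fit -0.32 and -0.31 with adjusted p of 0.0173 and 0.0439. There NQO1 gave -0.55 (SE 0.07, adjusted p = 0.00104), and the group means were 556 CPM in TEPA+hypoxia and 822 CPM in control cells. OSGIN1, an oxidative stress induced growth inhibitor, gave -0.67 (SE 0.12, adjusted p = 0.00742), and PIR, an iron-binding nuclear protein of the cupin family, -0.47 (SE 0.09, adjusted p = 0.0144). The promoter windows of GCLM, ME1, PGD and PIR were printed above because these members were called lower in that fit. Their place among the called members is thus no separate result about the motif. CBR1, whose window also holds the motif, was at -0.24 and was not called. With all 12 libraries the log2 fold changes of these genes were close to the same, but none was called. Adjusted p was then 0.107 for PGD, 0.373 for ME1, 0.361 for TKT, 0.719 for TALDO1, 0.187 for NQO1, 0.328 for OSGIN1, 0.285 for PIR and 0.643 for CBR1.

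Of the regulators, NFE2L2, KEAP1 and MAFG were not called in either fit of TEPA+hypoxia over control. NFE2L2 had 95.2, 98.1 and 104 CPM in TEPA+hypoxia, 93.5, 89.4 and 103 CPM in TEPA, 87.0, 39.97 and 47.8 CPM in hypoxia, and 96.7, 103 and 92.9 CPM in control libraries. The TEPA+hypoxia, TEPA and control libraries of this gene overlapped, and hypoxia 2 and 3 lay far below all others. Its log2 fold change in TEPA+hypoxia over control was 0.02 (SE 0.22), and 0.03 (SE 0.07) without hypoxia 2 and 3. KEAP1 had 137, 137 and 114 CPM in TEPA+hypoxia, 153, 146 and 143 CPM in TEPA, 166, 254 and 244 CPM in hypoxia, and 153, 148 and 166 CPM in control libraries. All TEPA+hypoxia values of KEAP1 were below all control values, at -0.27 with all libraries (SE 0.15, adjusted p = 0.595) and -0.26 without hypoxia 2 and 3 (SE 0.09, adjusted p = 0.0857). MAFG had 74.6, 75.2 and 77.9 CPM in TEPA+hypoxia, 82.9, 76.6 and 71.1 CPM in TEPA, 77.5, 59.2 and 66.6 CPM in hypoxia, and 82.3, 86.4 and 77.5 CPM in control libraries. Here TEPA+hypoxia and control overlapped, at -0.11 (SE 0.11, adjusted p = 0.807), and -0.10 (SE 0.07, adjusted p = 0.413) without hypoxia 2 and 3.

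**Figure D3:**
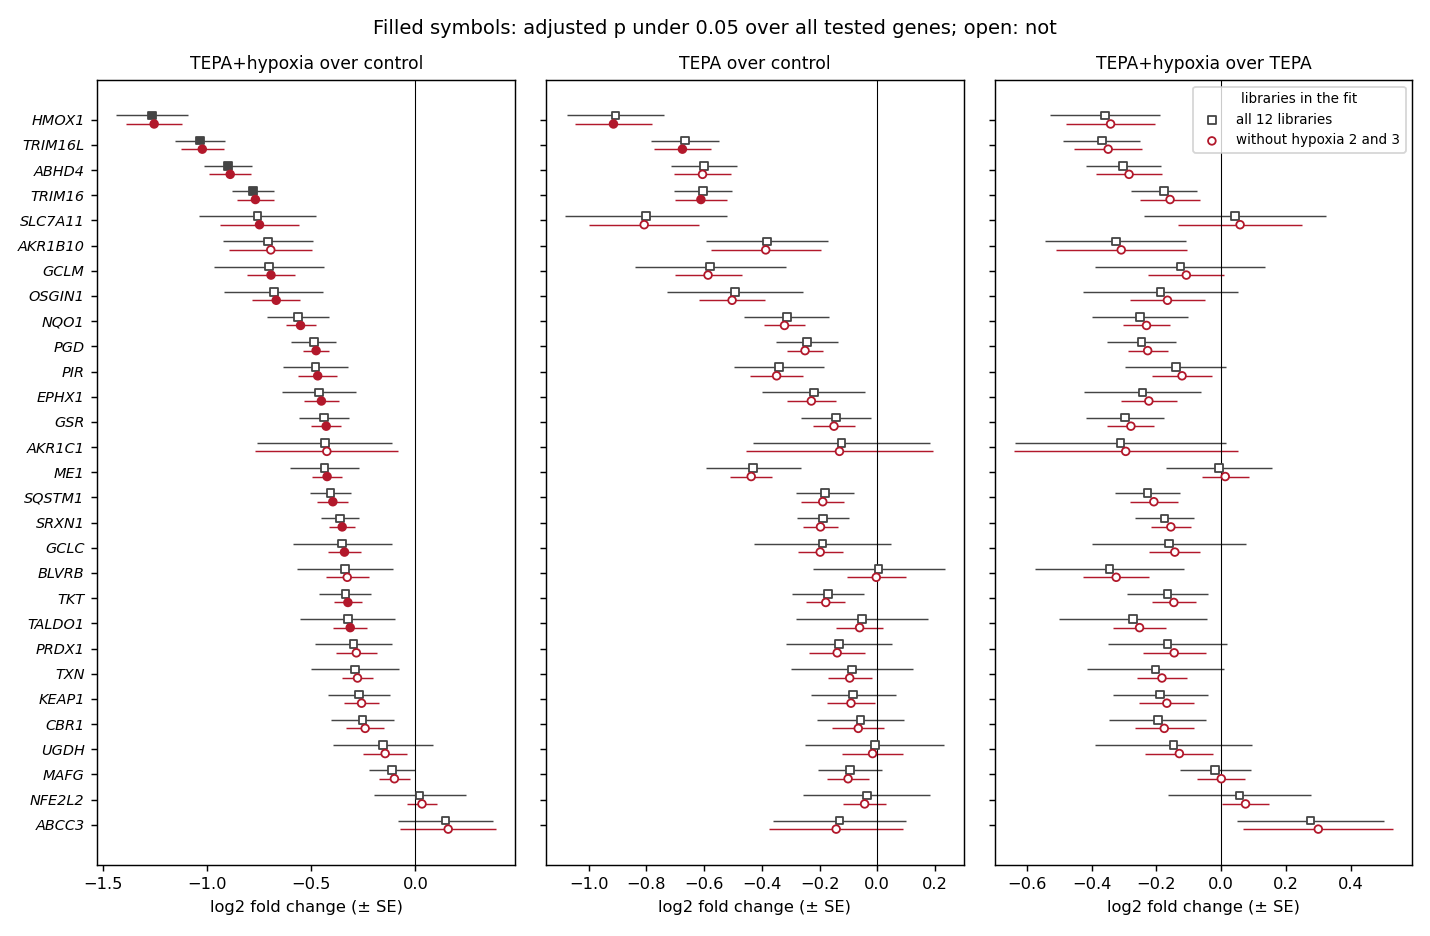
Log2 fold changes with their SE for the 29 members in TEPA+hypoxia over control, TEPA over control and TEPA+hypoxia over TEPA, ordered by the first; squares use all 12 libraries, circles leave out hypoxia 2 and 3, and filled symbols passed adjusted p under 0.05. In the first panel 4 squares and 18 circles are filled, all at negative values, in the second no square and 3 circles, and in the third none.

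The comparison of TEPA with control asks what TEPA does at normal oxygen. No member and no gene of the 14447 passed the test with all 12 libraries (0% of all tested genes; the smallest adjusted p was 0.854). At an unadjusted p under 0.05 there were 8 members and 289 genes in all. DESeq2's Wald test and the fit of the TEPA and control groups alone each called 4 members lower, where they called 0.0415% and 0.0554% of all tested genes, and limma-voom called 0. The members' median log2 fold change was -0.19 with 28 of 29 negative, against a median of 0.004 over all genes. In 19 of the 29, every TEPA library lay below every control library, an order found in 6.92% of all tested genes. TRIM16, TRIM16L, HMOX1 and ABHD4 held ranks 1, 2, 3 and 4 of all 14447 genes by p, in that order, at log2 fold changes of -0.60 (SE 0.10), -0.67 (SE 0.12), -0.91 (SE 0.17) and -0.60 (SE 0.12). Because the members were chosen with earlier results of these data known, these ranks are not independent support.

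When hypoxia 2 and 3 were left out, 3 members were called lower with TEPA alone, HMOX1 at -0.91 (SE 0.13), TRIM16 at -0.61 (SE 0.09) and TRIM16L at -0.68 (SE 0.10), each with an adjusted p of 0.0391. They were 3 of the 4 genes called in the whole table (0.0277% of tested genes, all 4 lower). As the division of reads between TRIM16 and TRIM16L is uncertain, these may not be separate falls. The fourth, named after its value was seen, was MT1E, a metallothionein that binds zinc and copper, at 20.6 CPM in TEPA and 35.3 CPM in control cells (-0.79, SE 0.09, adjusted p = 0.00594). ABHD4 (-0.61, adjusted p = 0.072) and ME1 (-0.44, adjusted p = 0.0782) came next among the members without passing. SLC7A11 had a larger fold change with more spread, -0.81 (SE 0.19, adjusted p = 0.393). All 29 log2 fold changes were negative in this fit, with a median of -0.20. Leaving out hypoxia 1 instead also called 3 members lower, where 0.0346% of all tested genes were called, and leaving out any other single library called 0.

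Members whose TEPA and control libraries overlapped were NFE2L2, KEAP1, MAFG, BLVRB, TXN, TALDO1, AKR1C1, CBR1, UGDH and ABCC3. Their log2 fold changes without hypoxia 2 and 3 ran from -0.14 in ABCC3, an exporter of conjugates, to -0.0035 in BLVRB, a biliverdin and flavin reductase. The abundant enzymes PRDX1 (-0.14, SE 0.10), TKT (-0.18, SE 0.07), SRXN1 (-0.20, SE 0.06), PGD (-0.25, SE 0.06) and NQO1 (-0.32, SE 0.07) lay lower in every TEPA library than in any control library, in that fit, and none passed the test in either. For PRDX1 this was nearly a tie, with 1007 CPM in TEPA 2 and 1008 CPM in control 2. SRXN1 encodes sulfiredoxin, which repairs overoxidised peroxiredoxins.

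**Figure D4:**
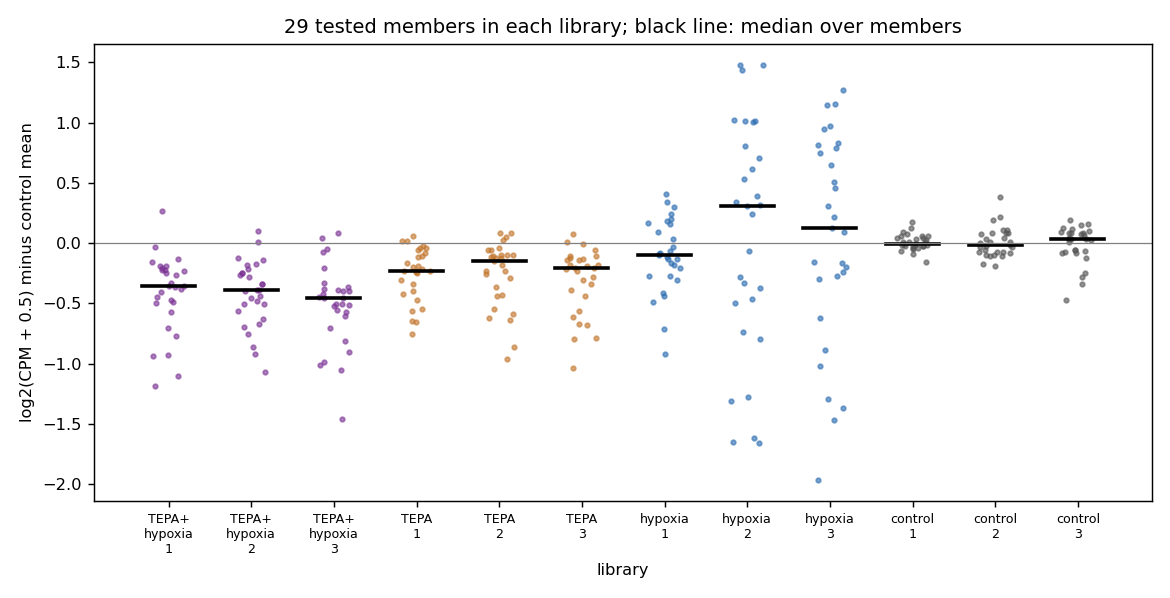
Each point is 1 of the 29 members in 1 library, as log2(CPM + 0.5) minus its mean over the control libraries; black lines are medians over members. The medians lie at -0.35 to -0.46 in the TEPA+hypoxia libraries, -0.15 to -0.23 in the TEPA libraries, -0.10, 0.31 and 0.12 in hypoxia 1 to 3, and -0.02 to 0.03 in the control libraries.

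Set against the mean of the control libraries on a log2(CPM + 0.5) scale, the members' median was -0.35, -0.39 and -0.46 in TEPA+hypoxia 1 to 3 and -0.23, -0.15 and -0.21 in TEPA 1 to 3. It was -0.10, 0.31 and 0.12 in hypoxia 1 to 3 and -0.01, -0.02 and 0.03 in control 1 to 3. The median over all tested genes stayed between -0.03 and 0.02 in every library. The 3 TEPA+hypoxia libraries thus lay lowest, the 3 TEPA libraries next, and the members of hypoxia 2 and 3 scattered most widely.

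TEPA+hypoxia over TEPA gives the response to low oxygen in cells treated with TEPA. No member was called with all 12 libraries, where 0.0969% of all tested genes were, nor without hypoxia 2 and 3, where 2.22% were and 13 members and 3295 of the 14447 genes had an unadjusted p under 0.05. With all libraries, 5 members and 1110 genes had an unadjusted p under 0.05, DESeq2 and limma-voom called 0, and 26 of 29 log2 fold changes were negative with a median of -0.19. Every TEPA+hypoxia library lay below every TEPA library in 17 of 29 members, an order found in 18% of all tested genes. The smallest adjusted p of a member was 0.0633, that of GSR at -0.28 (SE 0.07) without hypoxia 2 and 3; with all libraries it was at -0.30 (SE 0.12, adjusted p = 0.574). HMOX1 was at -0.34 (SE 0.14, adjusted p = 0.169) and TRIM16L at -0.35 (SE 0.10, adjusted p = 0.0886) without those 2 libraries, and at -0.36 and -0.37 with all 12 (adjusted p = 0.684 and 0.415). SLC7A11 was at 0.06 (SE 0.19) in the smaller fit, NFE2L2 at 0.08 (SE 0.07) and ME1 at 0.01 (SE 0.07).

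TEPA+hypoxia over hypoxia gives the effect of TEPA at low oxygen, and its size depends on hypoxia 2 and 3. With all 12 libraries, 19 members were called lower and 4 higher, in a comparison that called 61.5% of all tested genes. The 4 higher were NFE2L2, SLC7A11, GCLC and UGDH, the last an enzyme that makes UDP-glucuronate. GCLM, GSR, SRXN1, ME1, MAFG and ABCC3 were not called. The median of the members was -0.71, against 0.03 over all genes. With hypoxia 1 as the only hypoxia library, assumed to vary like the other groups, 15 members were called lower and none higher, where 7.75% of all tested genes were lower and 16.4% were called in either direction. None of the 4 higher members passed there, with log2 fold changes of 0.14 to 0.21. There HMOX1 stood at -0.52 (SE 0.19, adjusted p = 0.077), against -0.83 (SE 0.17, adjusted p = 0.00263) with all libraries.

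The 15 were SQSTM1, BLVRB, TXN, PRDX1, PGD, TKT, TALDO1, NQO1, CBR1, EPHX1, PIR, OSGIN1, TRIM16, TRIM16L and ABHD4. The smallest p among them was that of TXN, the electron donor of peroxiredoxins, which had 173, 171 and 154 CPM in TEPA+hypoxia, 181, 197 and 195 CPM in TEPA, 258, 566 and 449 CPM in hypoxia, and 199, 192 and 217 CPM in control libraries. Every hypoxia library of TXN lay above every other library, hypoxia 1 by much less than hypoxia 2 and 3. Its log2 fold change was -0.62 (SE 0.10, adjusted p = 0.0185) without hypoxia 2 and 3, against -1.35 (SE 0.21, adjusted p = 0.00217) with them. CBR1, a carbonyl reductase, had 101, 96.7 and 86.2 CPM in TEPA+hypoxia, 106, 117 and 102 CPM in TEPA, 149, 226 and 221 CPM in hypoxia, and 109, 105 and 125 CPM in control libraries. EPHX1, the microsomal epoxide hydrolase, had 36.4, 33.96 and 31.3 CPM in TEPA+hypoxia, 40.5, 39.6 and 40.2 CPM in TEPA, 53.1, 94.9 and 90.4 CPM in hypoxia, and 49.2, 43.5 and 47.5 CPM in control libraries. Both repeated the pattern of TXN, with the hypoxia libraries highest, at -0.65 (SE 0.12) for CBR1 and -0.64 (SE 0.12) for EPHX1 without hypoxia 2 and 3, each with an adjusted p of 0.0185. With all libraries they were at -1.07 and -1.23, each with an adjusted p of 0.00217.

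PIR had 34.3, 31.3 and 30.9 CPM in TEPA+hypoxia, 35.2, 34.6 and 36.6 CPM in TEPA, 49.95, 78.3 and 75.3 CPM in hypoxia, and 46.7, 39.5 and 48.5 CPM in control libraries. BLVRB had 66.1, 66.3 and 55.1 CPM in TEPA+hypoxia, 76.6, 83.3 and 78.2 CPM in TEPA, 96.8, 214 and 190.3 CPM in hypoxia, and 80.8, 68.8 and 87.6 CPM in control libraries. TALDO1 had 272, 262 and 233 CPM in TEPA+hypoxia, 311, 325 and 291 CPM in TEPA, 379, 889.5 and 711 CPM in hypoxia, and 316, 297 and 348 CPM in control libraries. In all 3 genes every hypoxia library lay above every TEPA+hypoxia, TEPA and control library. Without hypoxia 2 and 3, TEPA+hypoxia over hypoxia gave -0.62 for PIR and BLVRB and -0.56 for TALDO1, with adjusted p of 0.0189, 0.0208 and 0.0189. With all libraries the values were -1.08 for PIR, -1.42 for BLVRB and -1.37 for TALDO1, each with an adjusted p of 0.00217.

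Hypoxia over control asks what low oxygen does to cells without TEPA. With all 12 libraries 10 members were called higher and 10 lower, where 57.2% of all tested genes were called, against 20 of 29 members (68.97%). Higher were KEAP1, BLVRB, TXN, PRDX1, TKT, TALDO1, CBR1, EPHX1, PIR and OSGIN1. Lower were NFE2L2, HMOX1, SLC7A11, GCLC, GCLM, GSR, SRXN1, ME1, UGDH and TRIM16L. All 4 tested glutathione genes were thus lower, from -1.48 in SLC7A11 (SE 0.29, adjusted p = 0.00601) to -0.57 in GSR (SE 0.12, adjusted p = 0.00601). With hypoxia 1 alone against the controls, no member passed, where 0.519% of all tested genes did; 9 members and 3399 genes had an unadjusted p under 0.05. In that fit GCLC was at -0.49 (adjusted p = 0.0682), HMOX1 at -0.74 (adjusted p = 0.0861) and SLC7A11 at -0.96 (adjusted p = 0.1). The fit of the hypoxia and control groups alone called no member and no gene. Leaving out control 2 or hypoxia 2 called 13 members, where 37.7% and 37.1% of all tested genes were called.

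The members' differences from the control mean also went with the GC content and length of their transcripts, in the hypoxia libraries and in some others. Over the 29 members, the Spearman correlation between a transcript's GC content and its difference from the control mean was 0.30 in hypoxia 1, 0.50 in hypoxia 2 and 0.48 in hypoxia 3, against -0.49 in control 2 to 0.32 in control 3 among the other 9. With transcript length it was -0.47, -0.67 and -0.63 in the hypoxia libraries, against -0.53 in control 3 to 0.58 in control 2 among the other 9. The points share a library, and over all tested genes the correlation with GC content was 0.37, 0.51 and 0.54 in these libraries, against -0.44 to 0.48 in the other 9. With length it was -0.455, -0.489 and -0.509 in the hypoxia libraries, against -0.41 to 0.45 in the other 9. With a correction for GC content and length in the fit, SLC7A11, GCLM and ME1 were negative in TEPA+hypoxia over hypoxia, at -0.43, -0.42 and -0.43 on the log2 scale, against 0.72, 0.37 and 0.11 uncorrected.

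**Figure D5:**
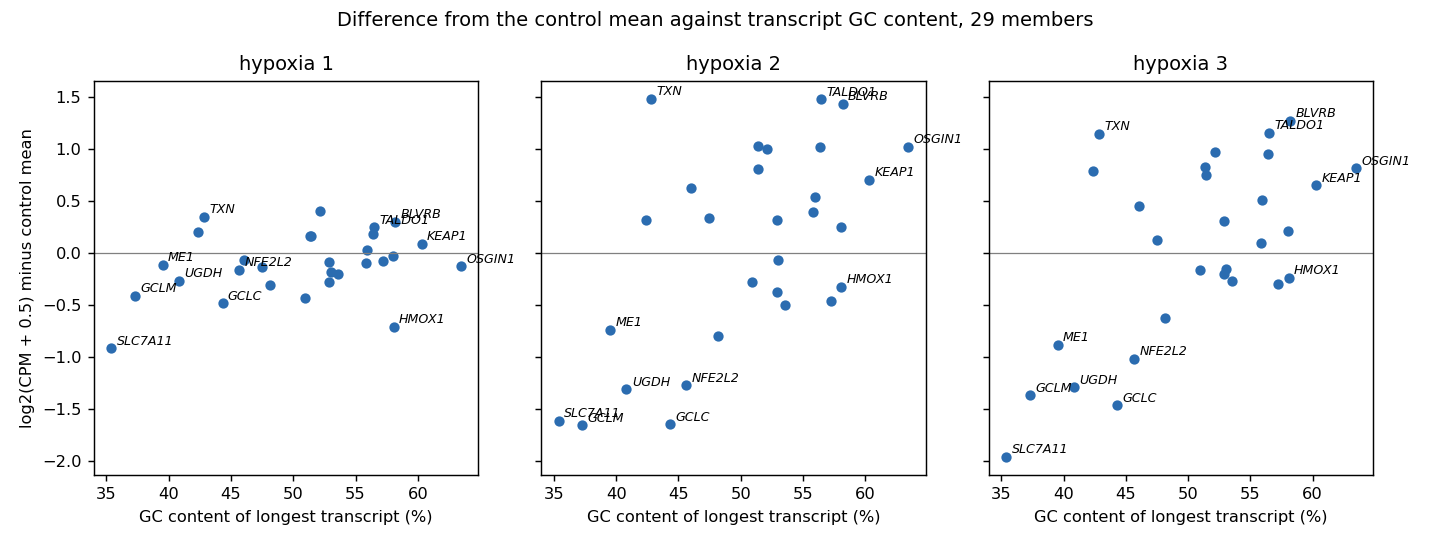
Difference from the control mean on the log2(CPM + 0.5) scale against the GC content of the longest annotated transcript, for the 29 members in hypoxia 1, 2 and 3. In hypoxia 2 and 3 SLC7A11, GCLM, UGDH, GCLC and NFE2L2 lie below -1, at GC contents of 35.4% to 45.6%, while TXN at 42.8% lies above 1; no member lies below -1 in hypoxia 1.

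The interaction is the effect of TEPA at low oxygen minus its effect at normal oxygen. With all 12 libraries 2 members were called positive and 11 negative, where 38.8% of all tested genes were called. Without hypoxia 2 and 3 no member and no gene passed (0% of all tested genes), although 7 members and 4032 genes had an unadjusted p under 0.05. The count also went to 0 without control 1, control 2, hypoxia 3, TEPA 2 or TEPA+hypoxia 3, to 6 without hypoxia 2 or TEPA 3, to 7 without TEPA 1, to 8 without TEPA+hypoxia 2 and to 21 without hypoxia 1. Of all tested genes, 0% were called in the 5 fits with no member, 15.9% and 19.5% in the 2 with 6, 23.04% without TEPA 1, 26.4% without TEPA+hypoxia 2 and 67.1% without hypoxia 1. HMOX1, TRIM16, TRIM16L and ABHD4 had interactions of 0.08 (SE 0.24), -0.04 (SE 0.14), -0.07 (SE 0.17) and -0.02 (SE 0.16) with all libraries, and 0.40, 0.03, 0.10 and -0.006 without hypoxia 2 and 3, none of them called. With all libraries the largest positive value was that of SLC7A11, 1.52 (SE 0.40, adjusted p = 0.0236), with 1.02 (SE 0.34, adjusted p = 0.0899) without hypoxia 2 and 3.

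Beyond the 34, 82 further genes of the NRF2 pathway were listed, and 67 were tested. With all 12 libraries none was called in TEPA+hypoxia over control (smallest adjusted p 0.241), TEPA over control or TEPA+hypoxia over TEPA. In TEPA+hypoxia over hypoxia 13 were higher and 37 lower (74.6% of the 67, against 61.5% of all tested genes), in hypoxia over control 32 were higher and 16 lower (71.6%, against 57.2%), and in the interaction 8 were positive and 25 negative (49.3%, against 38.8%). Without hypoxia 2 and 3, TEPA+hypoxia over control called 1 higher and 4 lower, 7.46% of the 67, which is near the 5.5% of all tested genes. FTH1 and FTL, the ferritin chains that store iron, were at 1102 ± 19.2 and 3064 ± 333 CPM in TEPA+hypoxia, against 1508 ± 66.5 and 3938 ± 351 CPM in control cells (SD, n = 3 each), with log2 fold changes of -0.44 (SE 0.06, adjusted p = 0.00186) and -0.35 (SE 0.09, adjusted p = 0.0366). AKR1B1, an aldose reductase, was lower by a log2 fold change of -0.55 (adjusted p = 0.0401, SE 0.14). The gene that rose was SESN2, a sestrin induced by several stresses, at 34.8 ± 1.10 CPM in TEPA+hypoxia and 27.4 ± 0.387 CPM in control cells (0.36, SE 0.08, adjusted p = 0.0245). In TEPA+hypoxia over TEPA only FTH1 was called, at -0.29 (SE 0.06, adjusted p = 0.0315), 1.49% of the 67 beside 2.22% of all tested genes. In TEPA+hypoxia over hypoxia 6 were higher and 15 lower (31.3%, against 16.4%), including FTH1 at -0.62 and FTL at -0.65. TEPA over control, hypoxia over control and the interaction called none of the 67 in that fit.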

How the data were processed

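RNA was measured in 12 libraries of EA.hy926 cells. The deposited table holds raw counts of reads per gene symbol, whole numbers with 1 column per library. Per the submitters' processing notes, reads were aligned with HISAT2 2.1.0 to GRCh38 and DESeq was among the tools; the sources used here do not give the counter, annotation or strand setting. Per the labels' protocols, RNA was extracted with TRIzol, poly(A)-selected and made into directional libraries. The software was edgeR 4.0.16, limma 3.58.1 and DESeq2 1.42.0 in R 4.3.3. filterByExpr by group kept 14447 genes with 99.9% of counts. All libraries were scaled by TMM and fitted with 1 mean per group. The quasi-likelihood F-test was two-sided, with Benjamini-Hochberg adjustment over all tested genes and calls at adjusted p under 0.05, in 6 contrasts. CPM use TMM-scaled totals; 3 counts correspond to 0.118 to 0.267 CPM, and such floors cover counting error only. The procedure was tested on simulated counts. At a dispersion of 0.0339 it recovered 10.4% of 1.5-fold, 79.1% of 2-fold and 100% of 4-fold changes between TEPA and control. At a dispersion of 0.0085 it recovered 71.6%, 92.5% and 100% of them. Each simulation gave every gene the same dispersion in all groups. In the data the spread differs between genes and was widest among the hypoxia libraries, so these shares may overstate the recovery here. Values in every library are given for HMOX1, SLC7A11, NFE2L2, KEAP1, MAFG and the members that were called and had 1 of the 4 smallest p of a contrast; other members are given by range and count. Members and lists were chosen with earlier results of these data known. Alternatives covered scaling, filters, other tests, the replicate block, the groups compared alone, each library left out, leaving out hypoxia 2 and 3, and splines for GC content and transcript length (12611 genes, 87.3% of those tested).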

Additional observations from a re-analysis of the deposited data

Results flagged for a closer look

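In 13 members the effect of TEPA at low oxygen differed from its effect at normal oxygen by a test of the difference itself (the interaction, adjusted p under 0.05 in edgeR with all 12 libraries). These were 44.8% of the 29 tested members, near the 38.8% of all tested genes that the same test called. The count by itself is thus no result about the members. Leaving out 1 library at a time gave 0 to 21 called members. The values that follow are log2 interactions, the effect at 1% oxygen minus the effect at normal oxygen. Negative values were found in 11 members. They were -1.42 in BLVRB (SE 0.33, adjusted p = 0.0236), -1.31 in TALDO1 (SE 0.33), -1.27 in TXN (SE 0.30), -1.01 in CBR1 (SE 0.21) and -1.01 in EPHX1 (SE 0.25), the last 4 with the same adjusted p as BLVRB. Smaller ones were -0.88 in PRDX1 (adjusted p = 0.0273), -0.74 in PIR (adjusted p = 0.028), -0.69 in KEAP1 (adjusted p = 0.0284), -0.61 in NQO1 (adjusted p = 0.0391), -0.54 in TKT (adjusted p = 0.0351) and -0.44 in PGD (adjusted p = 0.0426). Positive values were 1.52 in SLC7A11 (SE 0.40, adjusted p = 0.0236) and 0.95 in GCLC (SE 0.34, adjusted p = 0.0446).

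Without hypoxia 2 and 3 the 13 kept their signs and none passed the test. The smallest adjusted p was then 0.065, that of TXN at -0.53, followed by CBR1 at -0.58 (adjusted p = 0.0702), BLVRB at -0.62 (adjusted p = 0.0733) and TALDO1 at -0.49 (adjusted p = 0.0736). SLC7A11 was at 1.02 (adjusted p = 0.0899) and GCLC at 0.35 (adjusted p = 0.13). Hypoxia 2 and 3 also held the highest ribosomal protein shares and the highest sums of epithelial markers, mostly KRT7, KRT18 and KRT8. The part of these in the interactions was not tested.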

How the results depend on the processing

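Counts of called members in the order TEPA+hypoxia over control, TEPA over control, TEPA+hypoxia over TEPA, TEPA+hypoxia over hypoxia, hypoxia over control and interaction were 4, 0, 0, 23, 20 and 13 with all 12 libraries. Without hypoxia 2 and 3 they were 18, 3, 0, 15, 0 and 0 (5.5%, 0.0277%, 2.22%, 16.4%, 0.519% and 0% of all tested genes). With GC content and length also corrected for, a setting chosen after seeing the data, they were 24, 6, 9, 13, 1 and 2 (15.6%, 0.0872%, 7.65%, 13.5%, 2.13% and 1.87% of all genes). With the correction and all libraries, TEPA+hypoxia over control had 13 and the interaction 7 (1.11% and 23.1% of all genes); with the replicate block as well they had 8 and 4 (0.317% and 13.1%). Fits of only the groups compared gave 13 in TEPA+hypoxia over control, 4 in TEPA over control and 0 in hypoxia over control (1.78%, 0.0554% and 0% of all genes); the interaction needs all groups. DESeq2 gave 9 in TEPA+hypoxia over control and 4 in TEPA over control (2.1% and 0.0415%). Scaling by library totals alone gave 6 in the interaction (28.6%) and moved the median of all genes to 0.31 in TEPA+hypoxia over hypoxia, -0.24 in hypoxia over control and 0.32 in the interaction; the members' medians there were -0.40, -0.10 and -0.07. Leaving out 1 library at a time gave 0 to 17 in TEPA+hypoxia over control (0.0208% to 4.7% of all genes), 0 to 3 in TEPA over control (0% to 0.0346%), 0 in TEPA+hypoxia over TEPA (0% to 1.77%), 18 to 27 in TEPA+hypoxia over hypoxia (47.0% to 74.5%), 13 to 24 in hypoxia over control (35.9% to 72.8%) and 0 to 21 in the interaction (0% to 67.1%).

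Single members changed sign, with a call in at least 1 of the fits, in 28 cases, all in comparisons that use the hypoxia libraries. In TEPA+hypoxia over hypoxia the correction gave SLC7A11 -0.43, GCLM -0.42 and ME1 -0.43 (-0.42, -0.41 and -0.42 with the replicate block). Without hypoxia 2 and 3 the corrected values were SLC7A11 -0.38, GCLC -0.04, GCLM -0.59, ME1 -0.47 and UGDH -0.008. In hypoxia over control OSGIN1 was at -0.13 without hypoxia 2 and 3, and the correction gave SQSTM1 -0.21, PGD -0.27 and OSGIN1 -0.16 (-0.21, -0.27 and -0.17 with the block). Corrected and without hypoxia 2 and 3, KEAP1 was at -0.086, BLVRB -0.007, PRDX1 -0.032, TALDO1 -0.036, EPHX1 -0.056, PIR -0.017 and OSGIN1 -0.41. The interaction of PGD was 0.096 with the correction, 0.096 with the block added and 0.086 without hypoxia 2 and 3. The cause of these changes was not tested. Of the members' other comparisons with an alternative, 3520 kept their direction and their side of the threshold, 325 lost a call, 153 gained one and 115 changed sign without a call in either fit.

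No pairing by replicate number was seen: deviations of same-numbered libraries from their group means correlated at -0.45 to 0.43, and no 2 groups had all 3 correlations over 0.1. These correlations cannot settle whether same-numbered libraries were handled together. The replicate block gave 4, 0, 0, 23, 18 and 10 called members in the order of comparisons above, with 0.125%, 0%, 0.0623%, 58.2%, 53.3% and 31.4% of all genes. With 3 libraries a group the precision is limited by the spread between libraries, and for AKR1C1, ABCC3 and AKR1B10 also by their low counts.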
